A study of Drosophila melanogaster with 3 samples.

Results

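Of the 6633 reproducible Snoo-eGFP binding peaks of whole Drosophila melanogaster pupae, 1217 (18.3%) had their summit inside an intron and more than 1000 but at most 5000 bp from the nearest annotated transcription start. They were selected from the pooled list that passed the irreproducible discovery rate (IDR) threshold, on dm6, by 3 conditions on the summit: inside a gene body, in no exon, and at that distance from the nearest start of any gene in the Ensembl annotation. The peak's strength, replicates and sequence had no part in these 3 conditions. The list itself was made from the same 3 replicates, so replicate shares given below are of peaks that had already passed IDR. The animals were of 1 line, snoo-MiMIC, in which an artificial eGFP exon sits in an intron of snoo, so that the endogenous gene makes a Snoo-eGFP fusion protein. The material was pooled male and female pupae of unknown age, the fusion was precipitated with an antibody against GFP from sonicated chromatin, and the labels call the libraries biological replicates 3, 5 and 6 of a single group. The number of animals in each is not stated in these sources, and no control library or second genotype was analysed here, so every comparison is between places in the genome. In whole animals, binding in more cells and more binding per cell cannot be told apart.

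Snoo belongs to the Ski and SnoN protein family, whose members act in the nucleus. These coregulators bind Smad transcription factors, the effectors of TGF-beta and BMP signals, and bring corepressors to their targets. Introns close to a start often hold enhancers and silencers of the host gene, and in the long introns of fly regulatory genes they also serve small genes nested inside.

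The windows of 201 bases centred on the summits of 8 of these peaks are shown because they carry the results that follow: 3 of the strongest peaks, peaks in genes of chromatin, behaviour and BMP signalling, and a peak in Snoo itself. They are the plus strand of dm6, and capitals mark CAGTG or its complement CACTG, the letters inside the six-letter word most over-represented at these summits among words in at least 5% of them.
CG11050, chr2L:6612614-6612814: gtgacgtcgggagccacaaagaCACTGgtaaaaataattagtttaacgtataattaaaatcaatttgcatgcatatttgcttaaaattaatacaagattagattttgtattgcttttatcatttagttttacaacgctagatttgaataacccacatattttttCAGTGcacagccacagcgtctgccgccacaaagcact
ush, chr2L:480960-481160: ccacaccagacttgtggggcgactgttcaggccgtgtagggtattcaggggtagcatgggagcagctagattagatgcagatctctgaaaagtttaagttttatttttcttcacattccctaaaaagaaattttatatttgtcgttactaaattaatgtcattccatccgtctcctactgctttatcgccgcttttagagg
CG32772, chrX:4910263-4910463: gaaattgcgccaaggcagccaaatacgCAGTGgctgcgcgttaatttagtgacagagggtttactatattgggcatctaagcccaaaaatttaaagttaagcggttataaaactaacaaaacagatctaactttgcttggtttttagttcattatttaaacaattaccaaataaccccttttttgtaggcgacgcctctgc
Trl, chr3L:14759417-14759617: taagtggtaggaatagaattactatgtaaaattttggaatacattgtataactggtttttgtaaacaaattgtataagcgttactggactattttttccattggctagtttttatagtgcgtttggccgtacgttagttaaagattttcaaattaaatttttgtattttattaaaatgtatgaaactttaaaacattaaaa
for, chr2L:3655719-3655919: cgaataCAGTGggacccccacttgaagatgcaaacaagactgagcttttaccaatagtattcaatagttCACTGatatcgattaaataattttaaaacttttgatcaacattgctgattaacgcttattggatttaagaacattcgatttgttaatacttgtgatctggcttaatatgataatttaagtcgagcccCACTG
tkv, chr2L:5254236-5254436: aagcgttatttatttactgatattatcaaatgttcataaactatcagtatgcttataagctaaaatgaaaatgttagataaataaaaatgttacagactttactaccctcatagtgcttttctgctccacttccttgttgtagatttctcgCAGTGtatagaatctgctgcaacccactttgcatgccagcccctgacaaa
CG1677, upstream of brk, chrX:7305880-7306080: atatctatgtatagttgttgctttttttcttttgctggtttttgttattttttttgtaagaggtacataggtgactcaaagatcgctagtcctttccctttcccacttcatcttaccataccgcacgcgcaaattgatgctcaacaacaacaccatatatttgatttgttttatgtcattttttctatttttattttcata
Snoo, stronger peak, chr2L:7973604-7973804: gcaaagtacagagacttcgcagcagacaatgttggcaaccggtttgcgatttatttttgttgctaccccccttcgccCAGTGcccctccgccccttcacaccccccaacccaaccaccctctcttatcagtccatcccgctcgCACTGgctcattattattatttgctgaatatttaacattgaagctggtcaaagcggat

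In CG11050 a CACTG lay 76 bp upstream and a CAGTG 66 bp downstream of the summit, each outside an A and T rich middle. That middle is the host intron, only 140 bp long, which by the printed bases starts after the CACTG and ends within the CAGTG. Both sites of this window thus lie at exon boundaries. In CG32772 the single CAGTG lay 71 bp upstream. In for, the sites were 92 and 29 bp upstream and 98 bp downstream. The windows in ush, Trl and CG1677 held none, although they are among the stronger peaks.

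The intronic peaks had signals close to those of the rest of the list. Their deposited signal, the peak caller's score against a control alignment, ran from 128 to 3561 with a median of 222, against a range of 128 to 4785 and a median of 222 in the other 5416 peaks. The quartiles were 162 and 357 in the intronic peaks and 163 and 360 in the others. In the replicates' own candidate lists the median signal of the intronic peaks was 61.6, 70.3 and 101 in replicates 3, 5 and 6, against 61.6, 70.3 and 104 for the other peaks. The ratio of these medians was 0.991 ± 0.0156 (SD, n = 3 replicates), and an exact two-sided sign-flip test over the replicates gave p = 0.5, where 0.25 is the smallest value that 3 replicates allow. Signals over 1000 were held by 27 intronic peaks (2.22%), against 204 of the others (3.77%). The peaks nearer to starts, at 151 to 1000 bp, had a median of 250.0, intronic peaks over 5000 bp away 212, and intergenic peaks at 1001 to 5000 bp 229.5.

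A peak was called found in a replicate when a summit lay within 150 bp among that replicate's 6633 strongest regions. All 3 replicates found 688 of the 1217 intronic peaks (56.5%, exact binomial 95% interval 53.7 to 59.3), against 2994 of the 5416 others (55.3%); over the whole list the share was 55.5%. Replicates 3, 5 and 6 found 75.6%, 80.1% and 83.2% of the intronic peaks, against 76.2%, 79.7% and 82.9% of the others. The difference averaged 0.0211 ± 0.543 percentage points (SD, n = 3; exact sign-flip p = 1), and its sign differed between replicates. Of the remaining intronic peaks, 333 were found in 2 replicates, 178 in 1 and 18 in none. Over the 1132 intronic peaks with a candidate region in every replicate, Spearman's rho of the signals was 0.592 between replicates 3 and 5, 0.565 between 3 and 6 and 0.714 between 5 and 6. All 3 libraries came from the same line and were called with a control alignment, so these correlations are descriptive.

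The strongest intronic peak was in CG11050, with a signal of 762, 1069.9 and 1728 in replicates 3, 5 and 6 and 3561 in the pooled list. It ranked 3 in each replicate and 3 in the pooled list, at chr2L:6612386-6613003, in intron 2, which is only 140 bp long, 1027 bp downstream of the gene's start. The next lay in ush, which encodes the FOG-family cofactor of GATA factors, at chr2L:480554-481424 in an intron of 13185 bp. Its signal was 948, 814 and 1599 in replicates 3, 5 and 6 and 3439 in the pooled list, where it ranked 4. Its nearest start was not that of ush but of the zinc finger gene cbt, 1372 bp away. CG32772 followed with 503, 951 and 1479 in the replicates and 2961 in the pooled list. Replicate 3 gave the highest rank to ush and replicate 5 gave a higher signal to CG11050 and CG32772 than to ush.

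Trl, the gene of the GAGA factor, a DNA-binding protein that keeps chromatin open, had 470.0, 665 and 1064 in replicates 3, 5 and 6 and 2183 in the pooled list. Tlk, a Tousled-like kinase of chromatin assembly, had 243, 506 and 1021, with 1782 pooled. The ecdysone-induced nuclear receptor gene Eip78C had 354, 465 and 891, with 1714 pooled. The nuclear receptor gene Hr4 had 347, 546 and 804, with 1703 pooled. The starts nearest to the Eip78C and Hr4 peaks were those of CG43218 and CR46447. These 4 peaks ranked between 28 and 60 in the pooled list, and the lowest replicate rank among them was 207, for Tlk in replicate 3.

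Tet, a dioxygenase that acts on modified bases, had 305, 393 and 637 in replicates 3, 5 and 6, and simj, a subunit of the NuRD repressor complex, had 337, 396 and 591. Outside regulators, norpA, the phospholipase C of photoreceptors, had 266, 475 and 959, and for, a cGMP-dependent protein kinase, had 371, 438 and 652. The gene of the translational repressor pum had 315, 373 and 706, at a peak whose nearest start was that of lncRNA:CR45196. CG12769, CG3726 and babos complete the 15 strongest, with pooled signals of 2168, 2141 and 1255. All 15 were found in every replicate. In each of them replicate 6 gave the highest value, as it did for the median of all the intronic peaks (61.6, 70.3 and 101 in replicates 3, 5 and 6). The order of the replicates is thus that of their lists and is not particular to these 15.

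**Figure D1:**
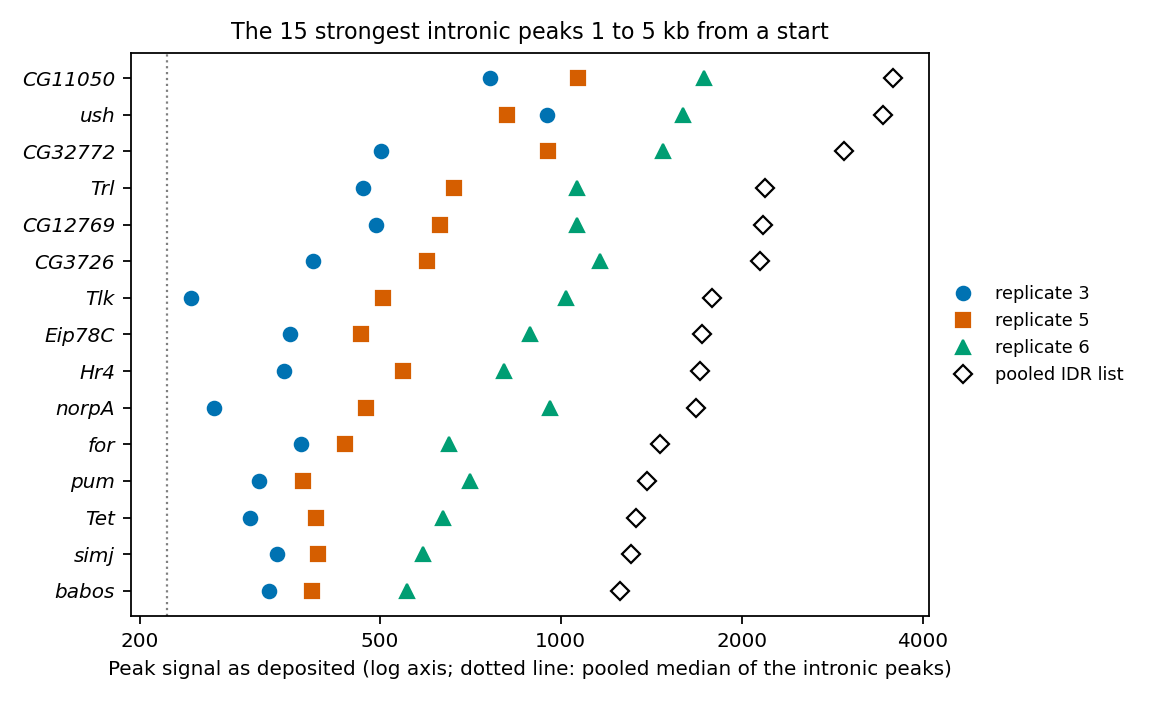
Deposited signal of the 15 strongest intronic peaks (log horizontal axis) in replicates 3, 5 and 6 and in the pooled list, named by host gene from strongest at the top. The replicate values lie between 243 and 1728, and replicate 6, whose list also has the highest median, is highest in each row. Every pooled value is above the dotted line at 222, the pooled median of the 1217 intronic peaks.

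The tagged gene itself held 2 of the intronic peaks, close together in an intron of 78434 bp. The stronger, at chr2L:7973520-7973834, had 57.3, 127 and 119.7 in replicates 3, 5 and 6 and 291 in the pooled list, and was found in all 3. The weaker, at chr2L:7973861-7974188, had 45.9, 38.2 and 84.0, with 167 in the pooled list, and was found in 2. Both were 3077 to 3361 bp downstream of the nearest Snoo start and of ordinary strength for this class.

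Intronic binding thinned out with distance from starts. Introns meeting the distance condition span 20.19 Mb, so the 1217 summits came to 60.3 per Mb (exact Poisson interval 56.9 to 63.8). At 1001 to 1500 bp there were 300 summits, 79.5 per Mb (70.7 to 88.99). At 1501 to 2000 bp there were 67.5 per Mb and at 2001 to 3000 bp 61.7 per Mb. At 3001 to 4000 bp there were 48.0, and at 4001 to 5000 bp 161 summits gave 45.9 per Mb (39.0 to 53.5). Introns over 5000 bp from a start held 30.0 per Mb (28.0 to 32.0), and intergenic sequence at 1001 to 5000 bp held 38.2 per Mb (35.0 to 41.6). Thus introns at 1 to 5 kb were more densely bound than intergenic sequence at the same distances and than deeper introns.

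The order held in the replicates taken one at a time, each with its own 6633 strongest regions. The regions that met the rule numbered 1182, 1215 and 1191 in replicates 3, 5 and 6, or 59.2 ± 0.845 per Mb (SD, n = 3). Density was 76.2 ± 1.76 per Mb at 1001 to 1500 bp and 46.1 ± 2.97 per Mb at 4001 to 5000 bp. It was 29.4 ± 1.68 per Mb in introns over 5000 bp away and 36.9 ± 1.46 per Mb in intergenic sequence at 1001 to 5000 bp (SD, n = 3 each). The 3 values of the nearest zone did not overlap those of the farthest zone or of either comparison class.

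**Figure D2:**
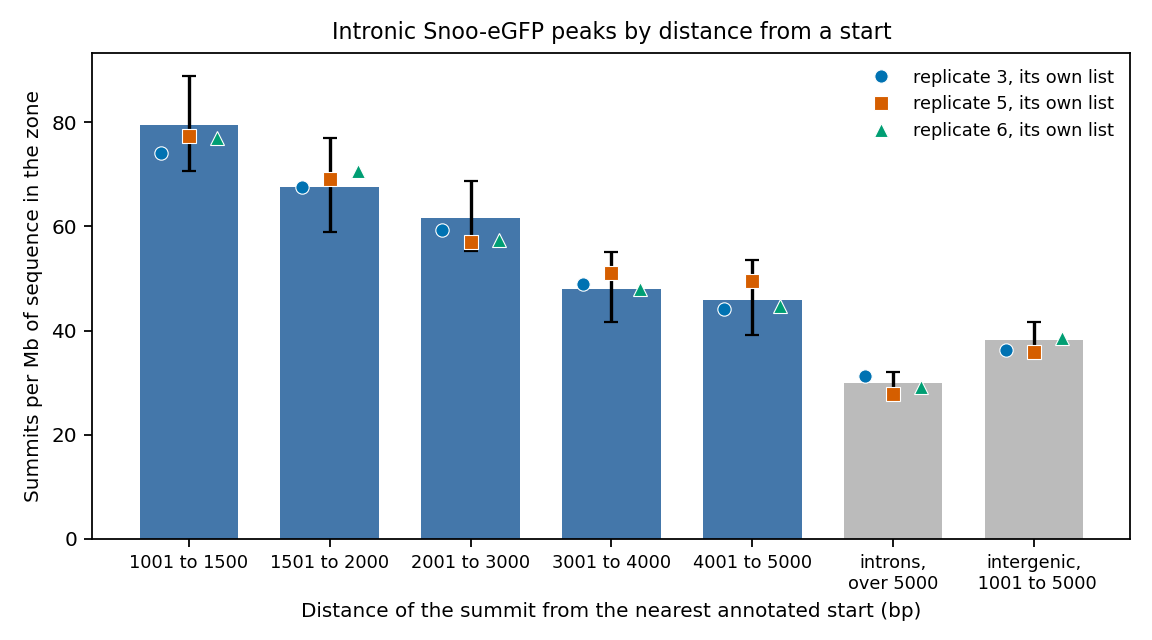
Summits per Mb of sequence by distance from the nearest annotated start (bp), for the 1217 intronic peaks in 5 zones (blue) and for introns over 5000 bp away and intergenic sequence at 1001 to 5000 bp (grey). Bars are the IDR list with exact 95% Poisson intervals and points are each replicate's own strongest regions; the bars go down from 79.5 to 45.9 per Mb across the blue zones.

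Strength did not follow distance in the same way: the median signal was 209 at 1001 to 1500 bp and 224 at 4001 to 5000 bp. At the near bound of the rule, intronic peaks at 1003 bp in par-1 and 1004 bp in dpy had signals of 224 and 234, and peaks just outside it, at 997 bp in shn and 996 bp in kis, had 247 and 327. At the far bound, peaks at 5000 bp in Lrch and 4993 bp in chm had 210.0 and 394, and peaks just outside, at 5003 bp in cv-c and 5019 bp in tara, had 704 and 138. No step in strength marks either bound among these 8 peaks.

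The intronic peaks were over-represented in first introns. Of the 1217, 586 (48.2%) lay in the first intron of a transcript of the host, against 36.1% of 100910 positions laid every 200 bp over the same introns. Introns after the second held 21.2% of the peaks, against 35.7% of the positions. Weighting the positions to the peaks' own distances from starts moved the expected share only to 37.0%. In every distance zone the peaks were above the positions, from 58.3% against 43.2% at 1001 to 1500 bp to 42.2% against 30.2% at 4001 to 5000 bp. In the replicates' own lists the share in first introns was 47.4 ± 1.19% (SD, n = 3). By side, 806 peaks lay downstream and 411 upstream of the nearest start, and the 66.2% downstream was level with the 66.1% of the positions.

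The X chromosome carried the highest density, 286 peaks or 71.5 per Mb (63.5 to 80.3), and arm 2L the lowest of the large arms, 190 peaks or 52.1 per Mb (44.9 to 60.0). This order did not hold in every library: in the replicates' own lists the X had 61.0, 71.5 and 71.8 per Mb in replicates 3, 5 and 6, and arm 2R had 70.6, 65.5 and 63.8. On chromosome 4, where the IDR list has 24 peaks in all, none met the rule in 0.267 Mb, which allows up to 13.8 per Mb. The files do not give sequencing depth, and the intervals cover counting error only.

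The 1217 peaks were assigned to 685 host genes, of which 666 code for proteins. In 877 peaks (72.1%) the nearest start belonged to the host. For 76 peaks the summit lay in several gene bodies, and only 1 gene, the longest protein-coding one where there was any, was counted as host. A single intronic peak was found in 414 hosts, and 271 hosts had more than 1, together 803 peaks. Only 35 hosts had 5 or more, with 215 peaks. Peaks are counted by summit: 135 (11.1%) lay in an interval shared with or overlapping that of another IDR summit. With only the strongest summit of each such interval kept, 1150 peaks met the rule. Summits that share an interval are among those of shn, Eip75B and psq. Summits in overlapping intervals are among those of CG1677, psq and tou. The counts of these hosts are thus not counts of separate regions.

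Schnurri (shn), the zinc finger protein through which Mad and Medea silence genes in response to the BMP ligand Dpp, had the most, 13 peaks over 31.6 kb of 2R. Their pooled signals ran from 144 to 1053, and 10 of the 13 were found in all 3 replicates, against 56.5% of all the intronic peaks. The strongest, in intron 1 and 1335 bp from a start, had 277, 312 and 455 in replicates 3, 5 and 6. In the replicates' own lists shn had 13, 13 and 14 such regions. The nearest start of all 13 was one of shn, and the gene body held 18 summits of the IDR list in all.

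CG1677 came next with 12 peaks on the X, but its 124.7 kb body encloses other genes, and none of the 12 had a CG1677 start as the nearest. All replicates found 8 of the 12, and the own-list counts were 10, 11 and 8 in replicates 3, 5 and 6. The nearest start was that of unc-119 for 4 of them, of CBP for 3, of CG42780 for 2, of Atg5 for 1, and of brk for 2. brk encodes Brinker, the repressor of Dpp target genes that Schnurri and the Smads switch off. The stronger peak near brk, at chrX:7305655-7306215 and 1959 bp upstream of its start, had 113, 200.5 and 325 in replicates 3, 5 and 6 and was found in all 3. The weaker, 2935 bp upstream, had 27.9, 113 and 43.7, and was found in replicate 5 only by the criterion above.

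Eip75B, an ecdysone-induced nuclear receptor gene, had 10 peaks spread over 97.8 kb, of which only 3 were found in all replicates. Its own-list counts were 6, 15 and 6 in replicates 3, 5 and 6, so replicate 5 alone held the higher number. The BTB-domain DNA-binding gene psq had 8 peaks, 6 of them found in all replicates, with own-list counts of 7, 10 and 10. The remodelling-complex gene tou had 8, 3 of them found in all replicates, with own-list counts of 8, 6 and 8. In all of these but shn and CG1677, no peak of the class exceeded a pooled signal of 543.

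**Figure D3:**
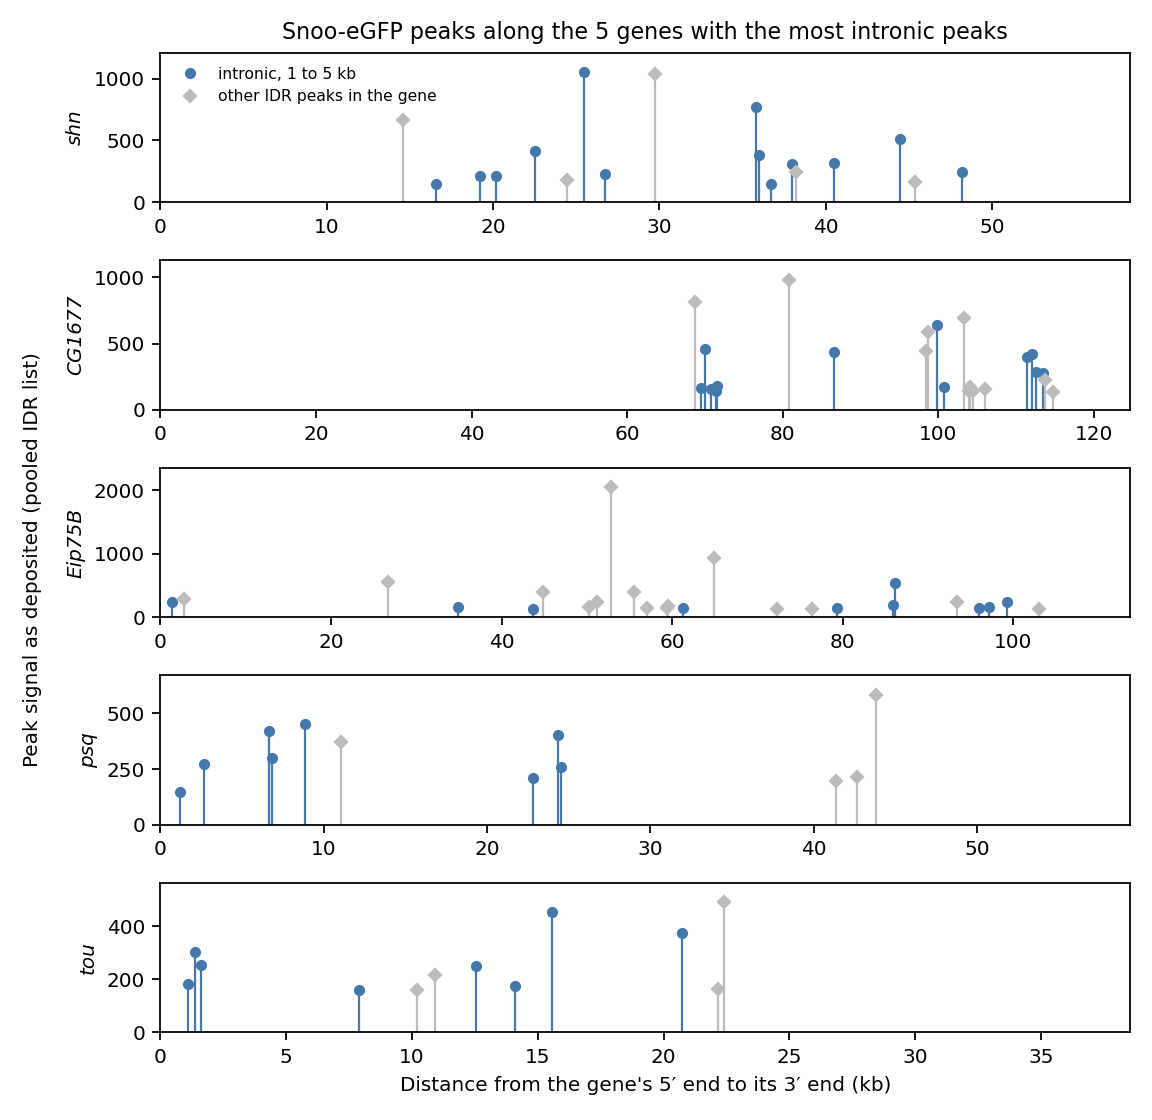
Pooled signal of every IDR peak in the bodies of shn, CG1677, Eip75B, psq and tou against the distance from the gene's 5′ end (kb), with the intronic peaks at 1 to 5 kb from a start in blue circles and other IDR peaks in grey diamonds. The 13 peaks of shn are spread over 31.6 kb, and the 12 of CG1677 form groups beside the starts of genes nested in it.

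Genes with such an intronic peak also tended to be bound at their start. Among 6861 protein-coding genes with any qualifying intron sequence, 666 (9.71%) were the assigned host of an intronic peak. Of the 6861, 32.4% had an IDR summit within 1000 bp of a start. Of the 666 hosts, 427 had such a start peak (64.1%, interval 60.3 to 67.8), against 1795 of the other 6195 genes (29.0%, 27.8 to 30.1), a difference of 35.1 percentage points. Long genes have more room for both, so the shares were also taken by length of qualifying intron. Among genes with 1001 to 4000 bp the shares were 57.3% in hosts and 31.2% in other genes, among those with 4001 to 8000 bp 61.0% and 34.2%, and above that 69.6% and 29.4%. In the replicates' own lists the shares were 64.8 ± 5.17% in hosts and 30.6 ± 0.887% in other genes (SD, n = 3), and the lowest host value, 58.8% in replicate 6, was above every value of the other genes.

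Across all protein-coding genes the density was 57.2 intronic peaks per Mb of qualifying intron. Of the 21 gene lists examined, 8 reached at least 2 times this density, 5 were at 0.5 times or less, and 3 of these 5 had no peak. Some genes are in more than 1 list. The intervals of the list densities cover counting error only. They treat summits as independent, although several can lie in 1 gene or in 1 interval. The lists were chosen with earlier results of these data known, so their densities and order describe these peaks and are not an independent test.

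Genes of TGF-beta and BMP signalling and genes of chromatin and corepressors were the densest, and their order was not stable: in the replicates' own lists the means were 217 and 222 per Mb. Of 26 TGF-beta and BMP genes with qualifying introns 11 held 33 peaks, 236 per Mb (162 to 331) or 4.13 times the value of all genes. All replicates found 21 of the 33, against 678 of the 1187 peaks in all protein-coding genes. The 33 include the 2 in Snoo, the tagged gene. Their median signal was 278, against 222 over all peaks in protein-coding genes. In the replicates' own lists the density was 217 ± 4.13 per Mb (SD, n = 3), against 56.4 ± 0.808 for all genes. Without shn the ratio was 3.22, below the 4.11 of chromatin and corepressor genes. Among ligands, dpp and the activin-type gene daw had 1 peak each, with pooled signals of 138 and 172, neither found in all replicates. Among receptors the type I gene tkv had 4, the strongest at 854, with 264 in replicate 5, 449.9 in replicate 6 and its lowest value in replicate 3. The start nearest to that peak was not one of tkv but that of lncRNA:CR44744, 4606 bp away. The type II receptor genes wit and put had 1 each, at 663 and 359, both found in all replicates. Of the extracellular modulators, the glypican gene dally had 3 and the BMP-binding antagonist gene sog and the secreted factor gene magu 2 each, with signals between 135 and 353. The inhibitory Smad gene Dad had 3, at 130.1 to 335. Peaks of the pathway thus lay in genes of ligands, receptors, modulators, inhibitors and of shn, with the strongest in shn and tkv.

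Dpp target genes, as a list, were less densely marked than the genes of the pathway. Their ratio to all genes, 1.69, was the lowest of the settings run. It was 2.32 by the gene of the nearest start, 2.36 without replicate 5 and 2.16 without replicate 6, past the 2 times of the dense lists. The list had 11 peaks at 96.5 per Mb (48.2 to 173), in 3 of 22 genes (13.6%, against 9.71% of all protein-coding genes). There were 6 in ush, 3 in Dad and 2 in hth, so its count rested on ush. The second peak of ush had a pooled signal of 526, and was found in all replicates.

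Genes of chromatin and corepressors had 25 peaks in 9 of 35 genes, 235 per Mb (152 to 347), with a median signal of 299. The peaks were in Smr, a nuclear receptor corepressor (5), in the corepressor scaffold gene Sin3A and the deacetylase gene HDAC4 (3 each), in Tet (3), in the Mediator gene skd (3), and in the trithorax and Polycomb group genes trx, kis, osa and ph-p (2 each). trx had the strongest after Tet, with 270.2, 328 and 583 in replicates 3, 5 and 6. The strongest in Smr had 180.4, 189 and 476, and its nearest start was that of lncRNA:CR43963. Both peaks of ph-p, at 574 and 642 pooled, were found in every replicate.

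Growth and patterning pathways came next. EGFR and Ras genes had 25 peaks at 180.0 per Mb (116 to 266), with 6 each in Egfr and in the ETS activator gene pnt, and 4 each in the ETS repressor gene aop and in the kinase gene Raf. The strongest 2 were in edl, an antagonist of ETS factors, at 1056 and 782, the latter with the start of CG33136 nearest. Wnt genes had 24 peaks at 157 per Mb (100.4 to 233), in 11 of 22 genes, among them 5 in the receptor gene fz2, 4 in the co-receptor gene arr and 3 in the feedback inhibitor gene nkd. The strongest of these, in nkd, had 186, 179 and 402 in replicates 3, 5 and 6.

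The ecdysone list had 36 peaks at 139 per Mb (97.1 to 192) in 11 of 22 genes. Beside the 10 of Eip75B they were in the receptor gene EcR and the nuclear receptor gene Hr3 (5 each), Hr4 (4), the ETS gene Eip74EF (3) and others. Every replicate found 19 of the 36, against 56.5% of all the intronic peaks, and the 19 included all 3 of Eip74EF and 4 of 5 in EcR. The GATA and zinc finger list had 32 peaks at 137 per Mb (93.8 to 194), with 8 in psq, 6 in ush and 3 each in Trl and the BTB repressor gene ttk. The bHLH list had 15 at 134 per Mb (75.2 to 221), 5 of them in Mnt, the Max partner that opposes Myc. The circadian list had 10 at 124 per Mb (59.5 to 228), 4 of them in the repressor gene vri, whose strongest had 233, 228 and 312 in the replicates.

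The other lists between 0.5 and 2 times the value of all genes follow. Hippo genes had 7 peaks at 111 per Mb (44.7 to 229), the strongest in ex, an upstream activator, at 866, with the start of lncRNA:CR43717 nearest. Cytoskeleton and adhesion genes had 22 at 102 per Mb (63.7 to 154), led by the cofilin gene tsr at 844. Insulin and FOXO genes had 10 at 99.4 per Mb, led by the insulin-binding factor gene ImpL2 at 1008, and JAK-STAT genes had 7 at 89.2 per Mb (35.9 to 184), 5 of them in the phosphatase gene Ptp61F. The JAK-STAT ratio to all genes, 1.56, was 1.03 without replicate 5 and 0.844 by the gene of the nearest start. Cell death and autophagy genes had 3 at 71.99 per Mb (14.8 to 210.4), with 144, 95.99 and 24.0 per Mb in the replicates' own lists, and their ratio to all genes of 1.26 was 0.602 without replicate 3 and 0.646 without replicate 5. The list of Notch genes had 7 at 69.1 per Mb (27.8 to 142), a ratio of 1.21 that was 0.654 when peaks were given to the gene of the nearest start, led by the ubiquitin ligase gene neur at 1106. Muscle genes had 7 at 37.1 per Mb (14.9 to 76.5), 2 of them in the muscle regulator gene Mef2.

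The sparsest lists per Mb, among those with any peak, hosted peaks in shares of their genes near the 9.71% of all protein-coding genes. Neuronal genes had 10 peaks in 5 of 42 genes (11.9%), 21.7 per Mb (10.4 to 39.9), the strongest in Ten-a, a synaptic teneurin, at 786. Homeodomain factors had 6 in 4 of 48 genes (8.33%), 18.1 per Mb (6.65 to 39.4), in Abd-B, hth, Antp and Ubx. Taken from each replicate's own list, these densities were 20.3 ± 3.32 and 24.2 ± 3.02 per Mb (SD, n = 3), below the 56.4 ± 0.808 of all genes in every replicate. No intronic peak of this kind was assigned to any of 96 chemosensory receptor genes or 18 cuticle protein genes with qualifying introns. These counts of 0 allow up to 92.6 and 86.4 per Mb, above the value of all genes. A lower density was thus not detectable in either list. Ribosomal protein genes, with 6 qualifying genes, had too little such sequence to be read.

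**Figure D4:**
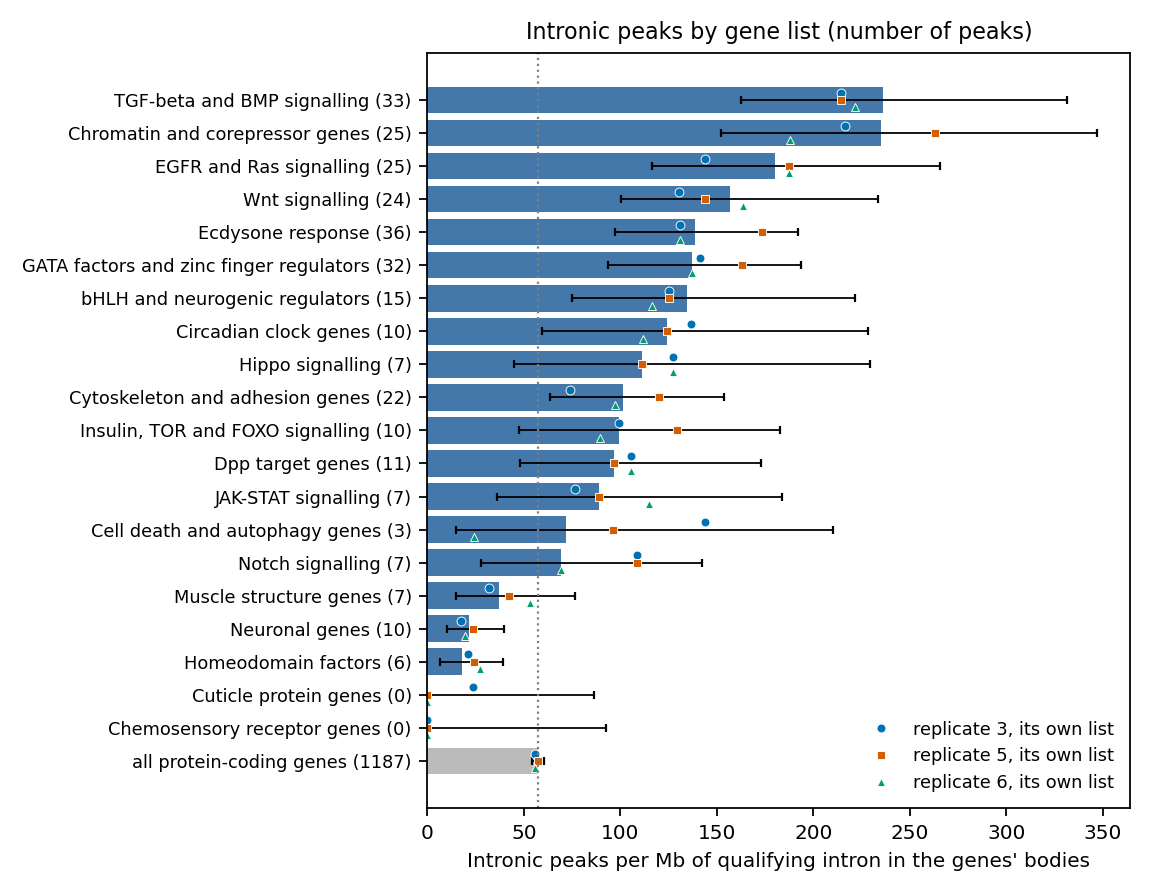
Intronic peaks 1 to 5 kb from a start per Mb of qualifying intron, for gene lists with at least 20 kb of such sequence, ordered from dense to sparse, with all protein-coding genes in grey at the bottom and their value of 57.2 per Mb as the dotted line. Bars are the IDR list with exact 95% Poisson intervals, points are each replicate's own strongest regions, and the numbers in brackets are peaks; TGF-beta and BMP genes reach 236 per Mb and homeodomain genes 18.1.

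Known recognition sequences of Smads and their partners were not more frequent at the summits by 1.5 times or more. In windows of 201 bases, both strands searched, the Mad and Medea motif GCCGNCG was in 44 intronic peaks (3.62%), against 4.98% of 69000 tiled windows of the same intron zones that held no candidate region and 7.60% of windows 1000 bp to either side of the same summits. The Smad box GTCTAG was in 2.88% of the peaks and 3.16% of the tiled windows, and the Brinker motif GGCGCC in 2.47% and 2.18%. The Schnurri silencer element was in none of the peaks, which allows up to 0.303%, against 0.058% of tiled windows. The peaks were poorer in G and C, with a mean of 36.3% against 39.9% in tiled windows, and the part of this in the lower shares was not tested.

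Of the 24 motifs searched, 7 differed by 1.5 times or more either way. The GAGA motif GAGAGAG was in 60 peaks (4.93%), against 2.40% of tiled windows, but in 4.48% of windows 1000 bp to either side of the same summits. The Grainyhead motif AACNGGTT was in 52 peaks (4.27%), against 2.06% of tiled windows and 3.29% of the flanking windows. The Grainyhead ratio to tiled windows, 2.08, was 1.44 without replicate 3. The ETS motif CCGGAA was less frequent, 2.30% against 4.83%. The promoter motifs DRE (TATCGATA) and Motif 1 (GGTCACACT) were rare in the intronic peaks, 0.493% and 0.164%, against 7.48% and 4.44% of peaks within 150 bp of a start. The E-box CACGTG was also past 1.5 times, in 1.56% of peaks (0.943 to 2.43) and 2.38% of tiled windows. The others were the joint Ftz-f1 and Hr3 motif CAAGGTCA, Motif 1 and the Schnurri element, with 1, 2 and 0 peaks. Motif 1 was in fewer tiled windows, 0.088%, a share inside its interval in the peaks (0.020 to 0.592%). The intervals of the E-box and the Schnurri element also hold their tiled shares.

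The letters CAGTG stood out, and they were picked after the six-letter words had been counted at these summits. CAGTG, on either strand, was in 572 of the 1217 intronic windows (47.0%, 44.2 to 49.9), against 26.6% of tiled windows. Windows 1000 bp to either side of the same summits gave 31.0%. The letters in reversed order, GTGAC, which have the same base composition, were in 15.7% of peaks and 18.1% of tiled windows. CAGTG in the replicates' own lists was in 45.9 ± 1.45% and GTGAC in 16.1 ± 0.276% of the windows (SD, n = 3). Among 1318 six-letter words that were in at least 5% of the intronic windows, ACAGTG had the highest ratio, 19.3% of peaks and 6.85% of tiled windows, or 2.82 times. The longer CAGTGTA was in 100 peaks (8.22%), against 1.65% of tiled windows. It was also in 8.11% of the deeper intronic peaks and 10.7% of intergenic peaks, and in 5.27% and 3.04% of the classes of peak nearer to starts.

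Other classes of peak held the letters CAGTG at like shares: 47.1% in introns over 5000 bp from a start, 50.9% in intergenic peaks, 42.6% at 151 to 1000 bp and 45.7% within 150 bp of starts. Signals with and without them were close: the median was 225 in the 572 intronic peaks with CAGTG and 218 in the 645 without, and the ratio of medians was 1.06, 0.965 and 1.07 in replicates 3, 5 and 6 (exact sign-flip p = 0.5, smallest possible 0.25). Peaks with CAGTG were found in all 3 replicates in 60.0% of cases (55.8 to 64.0) and those without in 53.5% (49.6 to 57.4).

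The matches were not spread evenly over the windows. CAGTG reached 4.85 matches per kb at 60 to 80 bp upstream and 4.27 at 60 to 80 bp downstream on the plus strand, but 1.97 to 2.51 within 20 bp of the summit, against 1.59 per kb in tiled windows. At 200 to 300 bp on either side of the summit, CAGTG had 1.36 to 2.67 matches per kb, a range that holds the values within 20 bp. G and C fell to 33.5% at the summit, against 44.6% at 280 to 300 bp upstream. GTGAC, of the same composition, showed no such pair of maxima and stayed between 0.534 and 1.40 per kb. The deeper intronic peaks had a matching pair, with 6.34 per kb at 60 to 80 bp downstream. Peaks within 1000 bp of a start had a lower pair, 3.64 per kb at 80 to 100 bp upstream and 3.42 at 60 to 80 bp downstream. Of the sites 50 to 120 bp from the intronic summits, 379 had CAGTG reading away from the summit (CAGTG downstream or CACTG upstream on the plus strand) and 297 towards it, or 56.1% away, and 61.5% read away in the deeper introns.

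**Figure D5:**
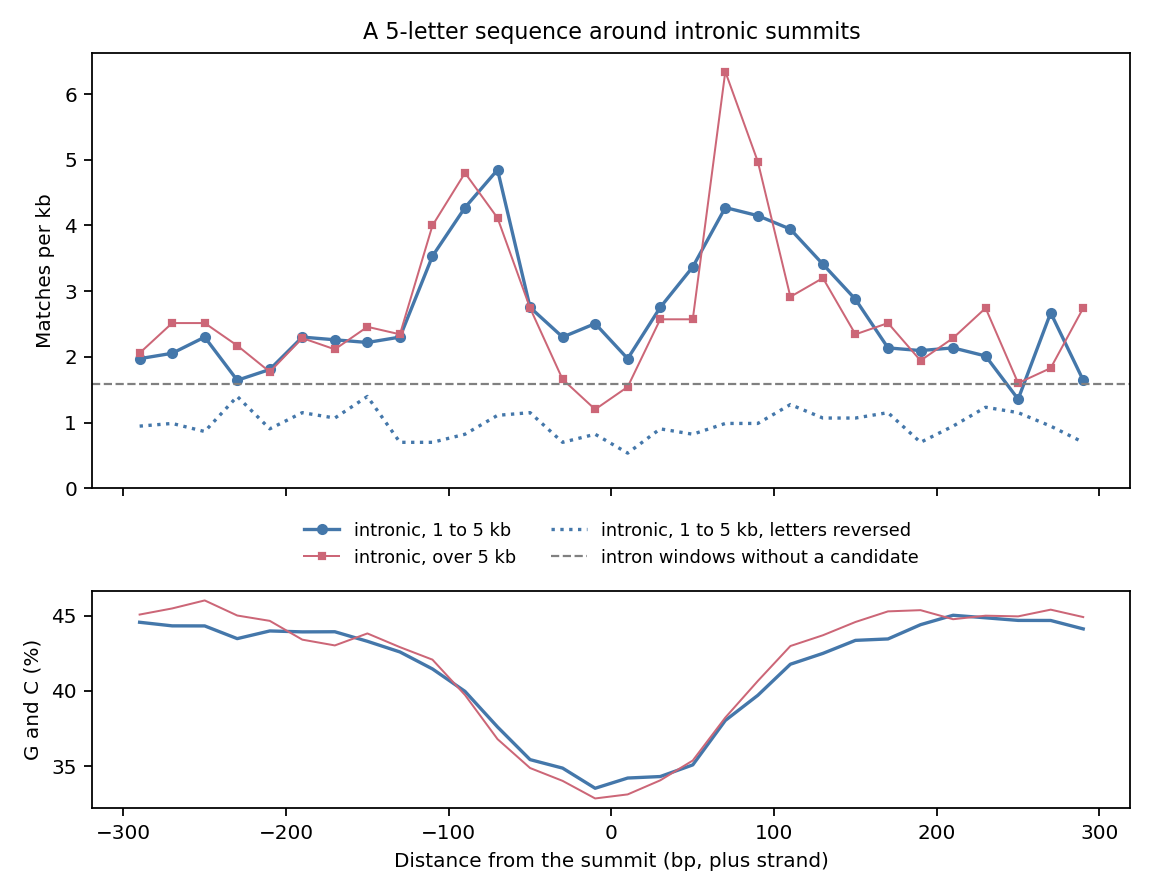
Top, matches per kb of the 5-letter sequence on either strand in bins of 20 bp around the summit (bp, plus strand), for the 1217 intronic peaks, for intronic peaks over 5 kb from a start, for the same letters reversed, and, dashed, for intron windows without a candidate. Bottom, percentage of G and C; the match density peaks at 4.85 and 4.27 per kb on the 2 sides, where G and C is climbing out of its minimum of 33.5%.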

How the data were processed

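ChIP-seq of Snoo-eGFP in whole pupae was used in 3 replicates of 1 group. The deposited peak signal, in narrowPeak lists on dm6, was made by the authors: per the file headers and listing, candidate regions were called in each replicate and in the pooled alignments against a control alignment, and the peaks passing IDR were kept. Aligner, caller, thresholds and sequencing depth were not given in the sources used here, so depth is unknown and signals are compared only within a list. The labels call the replicates biological.

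Summits were placed in the Ensembl release 115 annotation with Python 3.11.15 (numpy 2.4.6, pandas 2.3.3, scipy 1.17.1), and sequences were read from the RefSeq dm6 genome; the functions were tested on simulated data. Densities divide by intron bases that meet the rule. Intervals are exact 95% Poisson or Clopper-Pearson. A peak is found in a replicate when a summit lies within 150 bp among that replicate's strongest regions, as many as the IDR list holds. Tests between replicates are exact two-sided sign-flip tests. Each peak has 1 host among the genes whose body holds the summit, a protein-coding gene before others and then the longest. Qualifying bases are counted for every gene whose body holds them. Named are the 15 strongest peaks, those in Snoo, the 5 hosts with the most, the 3 strongest in each gene list and 2 on each side of each distance bound; peaks near brk and some list members were added after their values were seen. Members, lists and motifs were chosen with earlier results of these data known. Of the listed genes 17 were matched by a synonym, and 12 were not matched and were left out. The unmatched include let-7-C of the ecdysone list, CtBp of the chromatin and corepressor list, and Dl and cut of the Notch list. The gene lncRNA:let7C, host of 4 intronic peaks, is thus not in the ecdysone counts. Alternatives changed the start annotation, distance bounds, signal threshold, merging of overlapping intervals, matching and windows, and left out each replicate.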

Additional observations from a re-analysis of the deposited data

How the results depend on the processing

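Sequencing depth is unknown, and 3 replicates of 1 line give no p below 0.25. The 1217 intronic peaks became 697 with starts more than 2000 bp away, 606 in the stronger 50% of the list, 688 when found in all 3 replicates, and 770 to 844 when found in both remaining replicates (770 without replicate 6 and 783 without replicate 5). The density of 60.3 per Mb became 30.0 in the stronger 50% and 38.1 to 41.8 when a replicate was left out, by construction, since fewer peaks were kept.

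The share found in all replicates, 1.25 percentage points higher in intronic peaks than in others, was 0.42 with summits matched within 50 bp, -0.10 with 0.5 times as many regions per replicate, 2.26 with starts of protein-coding genes, and -0.23 (without replicate 6) to 1.31 with a replicate left out. The signal ratio of 0.997 was 1.003 with merged intervals, 1.009 with starts of protein-coding genes and 0.986 to 1.000 with a replicate left out. For both, the cause was not tested.

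The difference in start peaks, 35.1 points, was 49.5 with 2000 bp windows, where an intronic peak at up to 2000 bp can itself count as the start peak, 23.2 in the stronger 50% and 26.7 to 30.1 with a replicate left out. The 7 motifs past 1.5 times were 11 in the stronger 50%, but Grainyhead was below 1.5 there and without replicate 3 (1.44 each), GAGA was 1.46 with 50 bp on each side, and both were below it against windows 1000 bp away (1.30 and 1.10). The CAGTG ratio of 1.77 was 1.44 with 50 bp and 1.63 with 150 bp on each side, 1.52 against windows 1000 bp away, 1.82 to 1.88 with a replicate left out, and 0.867 with letters reversed; these alternatives were chosen after seeing the data. The 8 dense gene lists were 8 to 10 in the alternatives run. No paired analysis was possible because the samples form 1 group.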

Other observations

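The longest word compared, CACTGAGAG, which extends CAGTG on its complementary strand, was in 36 intronic peaks (2.96%, 2.08 to 4.07), against 0.159% of tiled windows and 0.205% of windows 1000 bp from the same summits. It was not particular to this class: CACTGAGAG was in 3.66% of the deeper intronic peaks and 3.62% of intergenic peaks. In the classes of peak nearer to starts it was less frequent, 1.13% and 0.701%. Of its 37 matches in the intronic windows 78.4% lay in bases that the reference genome gives in lower case (soft-masked), as did 58.2% of its matches in tiled windows. For CAGTG itself 19.6% of matches at the intronic peaks were in lower case, against 13.0% in tiled windows. Counting only matches outside lower case, CAGTG was in 39.8% of intronic peaks, against 23.5% of tiled windows, and CAGTGTA in 5.83%, against 1.23%. CACTGAGAG outside lower case was in only 8 intronic peaks (0.657%), against 0.0667% of tiled windows.

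Several six-letter words without CAGTG also ranked high. CTGTAC was in 9.45% of intronic peaks and 3.86% of tiled windows, GGTACA in 8.05% and 3.78%, and AGGGTA in 9.04% and 4.33%. These words were ranked and described on the same peaks, and no test was made.

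Another IDR summit of any class lay within 1000 bp of 366 of the 1217 (30.1%), against 28.9% of the other peaks and 25.0% of intronic peaks over 5000 bp from a start. Of the pooled candidate regions that met the distance and intron conditions, 18.9% of 6446 were in the IDR list, against 22.1% of all 30000 candidates.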
